A study of Homo sapiens with 6 samples.

Results

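The outer kinetochore KMN network was followed in 8505C cells after knockdown of NUF2, one of its subunits. The members were the 10 genes of the network by name: NUF2, NDC80, SPC24 and SPC25 of the NDC80 complex, MIS12, DSN1, NSL1 and PMF1 of the MIS12 complex, and KNL1 and ZWINT of the KNL1 complex. All 10 were among the 32985 genes in the deposited table and all 10 were among the 11725 genes tested, those with a mean FPKM (fragments scaled by gene length and library size) of at least 1. The rule that picks them uses gene names only, though the members were chosen with earlier results of these data known.

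8505C is an established cell line of anaplastic thyroid cancer (ATC). The siCtrl group held 3 libraries of cells labelled WT that had received control siRNA, and the siNUF2 group held 3 libraries labelled as NUF2 knockdown. All 6 were labelled 24 h, and poly(A) RNA was sequenced in each. The study's methods list a single NUF2 siRNA, so the knockdown group stands for that siRNA in 1 cell line. The labels do not say whether replicates were separate cultures, and p-values then measure only the spread between these libraries. Library totals ranged from 61257859 to 69755291 counts. Of the thyroid markers examined, NKX2-1 lay between 14.6 and 21.5 FPKM, PAX8 between 0.379 and 0.774 FPKM, and TG, FOXE1 and SLC5A5 at or below 0.0281 FPKM in every library. The mesenchymal marker VIM reached 452 to 521 FPKM and the keratin KRT18 137 to 205 FPKM, whereas the leukocyte markers PTPRC and CD3E stayed at or below 0.518 FPKM. The epithelial genes EPCAM and CDH1 were at or below 0.243 FPKM, the endothelial gene PECAM1 at or below 0.403 FPKM, and the fibroblast gene COL1A1 at or below 1.63 FPKM.

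As background, the KMN network is the part of the kinetochore that grips spindle microtubules. The NDC80 complex is a long rod: NDC80 and NUF2 form the end that contacts the microtubule, and SPC24 and SPC25 form the end that docks on the inner side. The MIS12 complex links the rod to the centromere, and KNL1 is a large scaffold that recruits spindle checkpoint proteins. The subunits are best known from dividing cells, where each complex assembles as a unit.

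The siRNA target is shown because the knockdown starts there. The sense strand given in the study's methods matches NUF2 at chr1:163336814-163336834 of GRCh38, plus strand, in the coding sequence of exon 6 of 14 of the canonical GENCODE release 44 transcript. It was found in 1 canonical transcript. Capitals mark the 7 bases that pair with positions 2 to 8 (the seed) of the antisense strand.
NUF2 siRNA target: gccgtgaaacgtaTATGGAAt

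The same 7 bases, TATGGAA, were searched for on the sense strand of the canonical transcript of each member. They occurred in 3 of the 10 members, NUF2, KNL1 and NSL1, and in 0 places in the other 7. NUF2 holds a site by design, as the siRNA target. KNL1 (9266 nt) and NSL1 (13115 nt) have the longest canonical transcripts of the members, and longer transcripts offer more places for a match. Among the 11699 tested genes with a canonical transcript, 25.3% hold them, so a match in a member is a common event and is given as a description. Each site is shown with its flanks within 30 bases, the site in capitals.
NUF2, exon 3 of 14, coding sequence, chr1:163327533-163327539, plus strand: ttacaaatagtaTATGGAAttcgactggaa
NUF2, exon 6 of 14, coding sequence, chr1:163336827-163336833, plus strand: ccgtgaaacgtaTATGGAAtttctttggca
KNL1, exon 10 of 26, coding sequence, chr15:40621321-40621327, plus strand: gtaacaacaggtTATGGAActaaagcttca
NSL1, exon 5 of 6, coding sequence, chr1:212739588-212739594, minus strand: tccagcccctcaTATGGAAaatttgaaatg
NSL1, exon 6 of 6, 3′ UTR, chr1:212734604-212734610, minus strand: atacatcctgtgTATGGAAtcacagaatgg

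Among the KMN genes, NUF2 fell and was the only member called. NUF2 dropped to 12.4% of its control level, while the other 9 members lay between 85.3% and 110% of theirs and none of these differences passed the test. The counts were tested with the quasi-likelihood fit of edgeR over all 11725 genes with Benjamini-Hochberg adjustment. A gene was called at an adjusted p under 0.05. Of all tested genes 3.99% were called, 2.46% lower and 1.53% higher in siNUF2 cells. Thus 1 of 10 members was called, the one the siRNA targets. For the 9 partners of NUF2, the count was 0 by edgeR, 0 at an unadjusted p under 0.05 (18.2% of all genes), and 0 by DESeq2 (8.29% of all genes).

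NUF2 (ENSG00000143228, chromosome 1 from 163266576 to 163355759 in the deposited file) measured 14.8, 14.5 and 12.2 FPKM in replicates 1, 2 and 3 of siCtrl, against 1.53, 2.05 and 1.56 FPKM in replicates 1, 2 and 3 of siNUF2. Every siNUF2 library was far below every siCtrl library. The log2 fold change was -2.99 (standard error 0.17, 95% interval -3.37 to -2.60, adjusted p = 5.1e-04), the value ranked 5 from the lowest among all tested genes. In siCtrl cells the NUF2 mRNA stood at the 74.95 percentile of tested genes by FPKM, and in siNUF2 cells at the 13.7 percentile. In bulk RNA such as this, fewer cells with a transcript and less transcript per cell cannot be told apart. RGS5 overlaps NUF2 on the opposite strand under 2 gene identifiers, each with at most 333 counts in a library, and no source used here states whether the counting used strand, so values of members that overlap other genes are uncertain.

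**Figure D1:**
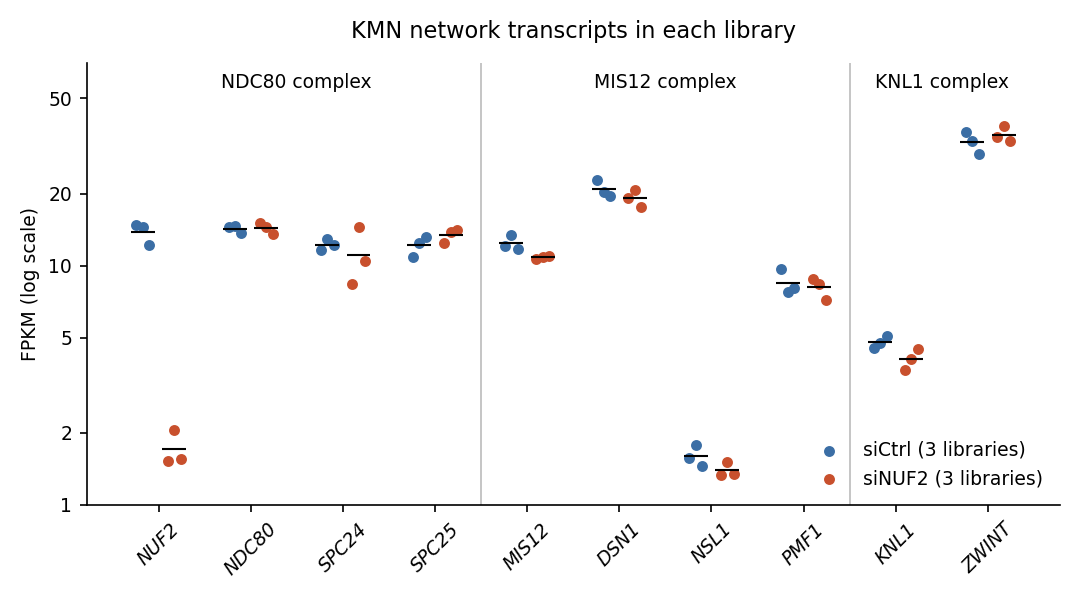
FPKM on a log axis of the 10 KMN genes in each library, 3 siCtrl (blue) and 3 siNUF2 (orange) in order of replicate number, with a black line at each group mean and grey lines between the complexes. NUF2 goes from 13.9 to 1.71 FPKM on average, and the siNUF2 points of the other genes lie close to or among their siCtrl points.

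NDC80, the partner that forms the microtubule-binding end with NUF2, kept nearly the same level. Its gene (ENSG00000080986, chromosome 18 from 2571557 to 2616635) gave 14.4, 14.7 and 13.6 FPKM in the siCtrl replicates, again in the order 1, 2 and 3, and 15.1, 14.5 and 13.6 FPKM in the siNUF2 replicates. The groups overlapped. The log2 fold change was 0.03 (standard error 0.09, 95% interval -0.18 to 0.24, adjusted p = 0.901). As a share of the control level, the interval runs from 88.4% to 118%.

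SPC24 (ENSG00000161888, chromosome 19 from 11131520 to 11155808) and SPC25 (ENSG00000152253, chromosome 2 from 168834132 to 168913371) encode the other end of the rod. SPC24 measured 11.6, 12.9 and 12.2 FPKM in the siCtrl libraries and 8.40, 14.5 and 10.4 FPKM in the siNUF2 libraries. The siNUF2 libraries of SPC24 lay on both sides of the controls, and their coefficient of variation, 29.0%, was the largest of any member in either group. Its log2 fold change was -0.12 (95% interval -0.57 to 0.34, adjusted p = 0.820), and it turned to 0.055 without siNUF2 replicate 1. SPC25 measured 10.9, 12.5 and 13.1 FPKM in the siCtrl libraries and 12.4, 13.8 and 14.1 FPKM in the siNUF2 libraries. Both groups of SPC25 overlapped, and the log2 fold change was 0.16 (95% interval -0.13 to 0.46, adjusted p = 0.581).

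The NDC80 complex can also be read within a library, where scaling between libraries cancels. The FPKM of NUF2 divided by that of NDC80 was 1.03, 0.988 and 0.898 in siCtrl replicates 1, 2 and 3, against 0.101, 0.142 and 0.115 in siNUF2 replicates 1, 2 and 3. The pair thus had almost equal levels per length in control cells and unequal levels in every knockdown library. The mean ratio went from 0.971 ± 0.0651 (SD, n = 3) to 0.119 ± 0.0204 (SD, n = 3). By the difference of the mean log2 ratios, it was 8.19-fold lower. The exact permutation test (two-sided) gave p = 0.1, the smallest that 3 libraries against 3 allow. The ratio of SPC25 to SPC24 was 0.994 ± 0.0699 in siCtrl cells and 1.26 ± 0.277 in siNUF2 cells (SD, n = 3 each, exact permutation p = 0.3). Over the 7 ratios other than NUF2/NDC80, taken within the 3 complexes, the exact permutation p, which leaves the pairing by replicate number aside, ran from 0.2 to 0.7. Within numbers 1, 2 and 3, the log2 ratio of ZWINT to KNL1 differed (siNUF2 minus siCtrl) by 0.24, 0.43 and 0.35. For SPC25 to NDC80 these differences were 0.13, 0.17 and 0.11. Both ratios were thus higher in 3 of 3 numbers, and the other 5 had mixed signs.

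**Figure D2:**
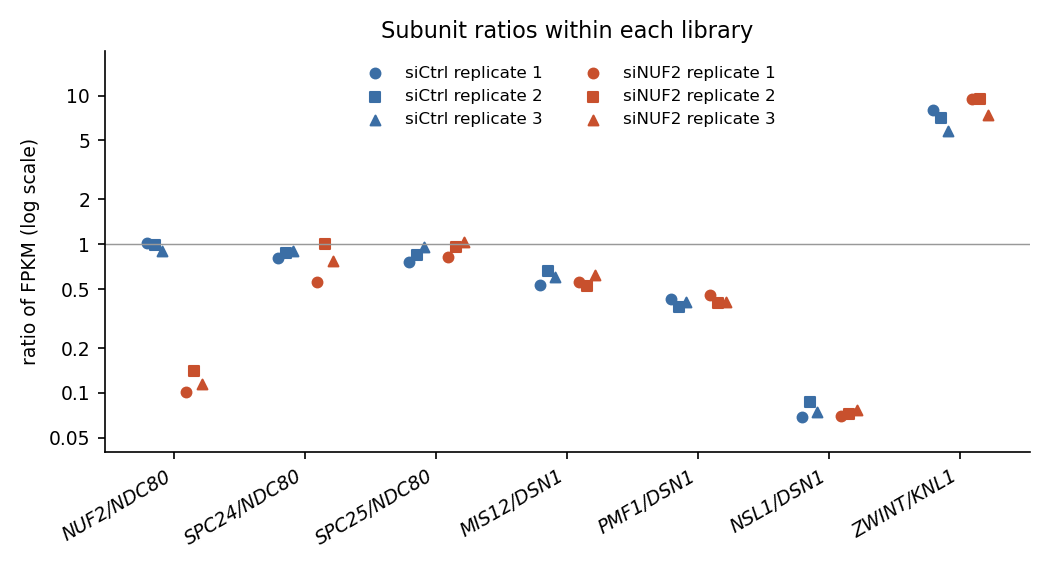
Ratios of FPKM between subunits of the same complex within each library, on a log axis, with siCtrl in blue, siNUF2 in orange and the marker shape giving the replicate number. NUF2/NDC80 falls from about 0.971 to 0.119, whereas the siCtrl and siNUF2 points overlap for the 6 other ratios drawn (SPC25/SPC24 is left off).

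In the MIS12 complex all 4 members had log2 fold changes below 0 and none was called. MIS12 (ENSG00000167842, chromosome 17 from 5486285 to 5490814), the subunit that names the complex, measured 12.04, 13.39 and 11.77 FPKM in the siCtrl libraries and 10.67, 10.90 and 10.96 FPKM in the siNUF2 libraries. Every siNUF2 library of MIS12 was below every siCtrl library. The log2 fold change was -0.17 (standard error 0.10, 95% interval -0.41 to 0.06, adjusted p = 0.440).

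DSN1 (ENSG00000149636, chromosome 20 from 36751791 to 36773799), a subunit through which Aurora B regulates the binding of the complex to the inner kinetochore, measured 22.7, 20.4 and 19.5 FPKM in the siCtrl libraries and 19.2, 20.8 and 17.5 FPKM in the siNUF2 libraries. The groups overlapped, with a log2 fold change of -0.10 (95% interval -0.35 to 0.15, adjusted p = 0.699). NSL1 (ENSG00000117697, chromosome 1 from 212726153 to 212791782) measured 1.57, 1.77 and 1.46 FPKM in the siCtrl libraries and 1.34, 1.51 and 1.35 FPKM in the siNUF2 libraries. The siNUF2 values of NSL1 were the lower ones, with 1 library among the controls, and the log2 fold change was -0.18 (95% interval -0.48 to 0.13, adjusted p = 0.558).

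PMF1 (ENSG00000160783, chromosome 1 from 156212993 to 156240040), the remaining subunit of the MIS12 complex, measured 9.72, 7.73 and 8.04 FPKM in the siCtrl libraries and 8.79, 8.35 and 7.18 FPKM in the siNUF2 libraries. The groups overlapped, with a log2 fold change of -0.05 (95% interval -0.38 to 0.28, adjusted p = 0.909). The read-through gene PMF1-BGLAP overlaps PMF1 on the same strand, and its counts amounted to 4.06% to 29.6% of those of PMF1, so how reads were split between them is uncertain. PMF1-BGLAP measured 2.74, 0.778 and 1.77 FPKM in the siCtrl libraries and 6.51, 3.72 and 3.23 FPKM in the siNUF2 libraries. All siNUF2 libraries of PMF1-BGLAP were above all siCtrl libraries, at a log2 fold change of 1.36 ± 0.47 (standard error), with an adjusted p of 0.176, or of 0.0194 when replicate numbers entered as a block.

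KNL1 (ENSG00000137812, chromosome 15 from 40594020 to 40664342), the checkpoint scaffold, came closest to the threshold among the partners. It measured 4.52, 4.73 and 5.07 FPKM in the siCtrl libraries and 3.66, 4.06 and 4.49 FPKM in the siNUF2 libraries. All siNUF2 libraries were lower than all siCtrl libraries, by a narrow margin. The log2 fold change was -0.21 (standard error 0.11, 95% interval -0.47 to 0.05, adjusted p = 0.384, unadjusted p = 0.0973 in edgeR). When replicate numbers entered edgeR as a block, the interval was -0.39 to -0.04, with an unadjusted p of 0.0251 and an adjusted p of 0.108 in edgeR. ZWINT (ENSG00000122952, chromosome 10 from 56357227 to 56361259), which binds KNL1 and helps bring the RZZ complex (ROD, ZW10 and ZWILCH) to kinetochores, measured 36.0, 33.2 and 29.1 FPKM in the siCtrl libraries and 34.4, 38.3 and 33.0 FPKM in the siNUF2 libraries. The groups overlapped, with a log2 fold change of 0.13 (95% interval -0.13 to 0.39, adjusted p = 0.633).

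Over the 9 partners, 6 log2 fold changes were below 0 and 3 above, with a median of -0.10. Over all tested genes the median was 0.01 and the middle of the distribution ran from -0.17 to 0.17 (interquartile range). For all 9 partners the 95% interval stayed within 1.5-fold of the control level in either direction, and the outermost bounds were 67.4% (SPC24) and 137% (SPC25). Smaller differences are not excluded by these intervals. The FPKM of the groups did not overlap for 3 of the 10 members, NUF2, MIS12 and KNL1, and the share among all tested genes was 23.9%. In the blocked fit, 14.5% of all tested genes were called, and among the members again only NUF2.

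**Figure D3:**
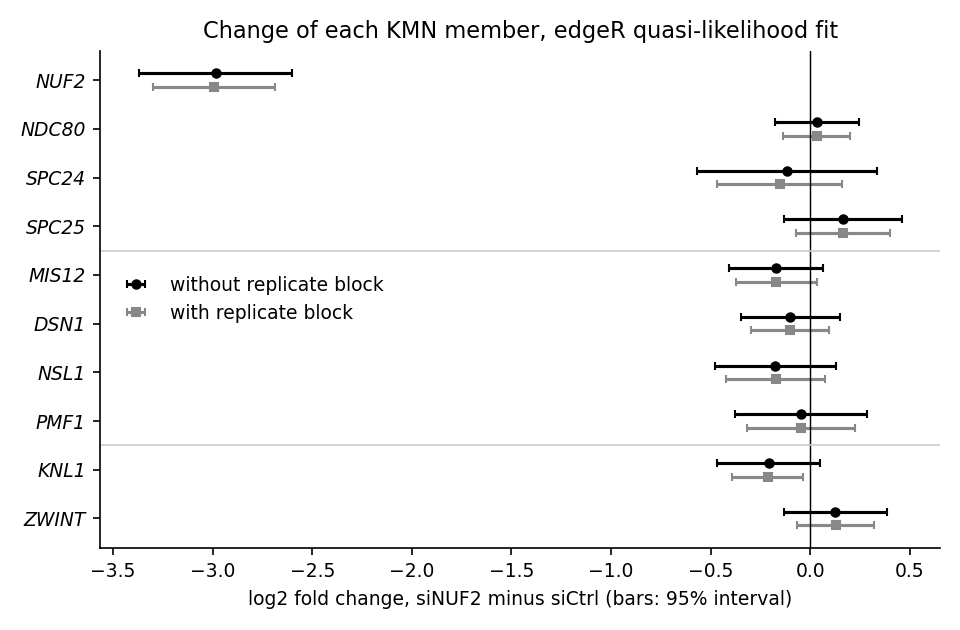
Log2 fold change (siNUF2 minus siCtrl) of each KMN gene with its 95% interval, from edgeR without (black circles) and with (grey squares) the replicate number as a block. NUF2 lies at -2.99, and the intervals of the other 9 genes include 0 without the block, as do all but that of KNL1 with it.

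Libraries of the same replicate number were taken as paired, which no label states. The difference was therefore also read within each number on the log2 CPM (counts scaled by TMM library size) scale. KNL1 differed (siNUF2 minus siCtrl) by -0.30, -0.18 and -0.16 in numbers 1, 2 and 3. MIS12 differed by -0.17, -0.26 and -0.09 and NSL1 by -0.22, -0.20 and -0.10. These 3 partners were lower in 3 of 3 numbers. SPC25, at 0.19, 0.18 and 0.12, and NDC80, at 0.07, 0.02 and 0.01, were higher in 3 of 3 numbers. The other 4 partners had mixed signs, with the widest spread in SPC24, at -0.46, 0.21 and -0.22. The share of all tested genes that kept the same sign in 3 of 3 numbers was not counted. These counts are therefore a description and no result about the members.

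**Figure D4:**
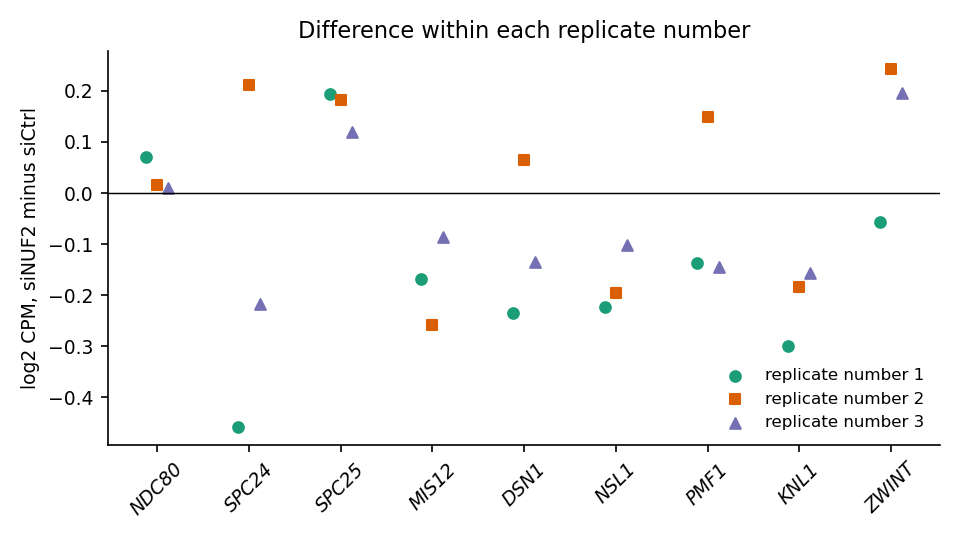
Difference in log2 CPM between the siNUF2 and siCtrl library of the same replicate number for the 9 partners of NUF2 (NUF2 itself, between -3.26 and -2.78, is left off). Points of KNL1, MIS12 and NSL1 lie below 0 in every number, those of SPC25 and NDC80 above 0, and those of the other 4 genes on both sides.

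The members differed in level by more than an order of magnitude although their proteins work together. In siCtrl cells the order by mean FPKM was ZWINT at 32.8, DSN1 at 20.9, NDC80 at 14.3, NUF2 at 13.9, MIS12 at 12.4, SPC24 and SPC25 at 12.2 each, PMF1 at 8.49, KNL1 at 4.77 and NSL1 at 1.60. From NDC80 through NUF2, MIS12 and SPC24 to SPC25, the libraries of neighbours in this order overlapped. At every other step the libraries of the neighbours did not overlap. In siNUF2 cells NUF2 moved from place 4 to place 9, between KNL1 at 4.07 FPKM and NSL1 at 1.40 FPKM.

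FPKM depends on the length assigned to a gene, and the low place of NSL1 goes with a long one. Its canonical transcript measures 13.1 kb, of which 843 nt are coding, and all its annotated exons together cover 13.9 kb. Dividing its counts by its FPKM and the library total gave 16.2 kb. That figure exceeded the exon total by a similar factor in every member, so it does not measure the length assigned. KNL1 is the other long transcript, at 9.27 kb with 2316 codons, against 1.07 kb for PMF1 and 1.96 kb for NUF2. When TMM-scaled CPM was divided by canonical length instead, PMF1 moved from place 8 to place 5 in siCtrl cells, at 23.5 ± 2.93 (SD, n = 3), and SPC24 from place 6 to place 8, at 17.8 ± 0.913 (SD, n = 3). SPC25 was then at 19.4 ± 1.86 (SD, n = 3), below PMF1, so their order depends on the length used. ZWINT, DSN1, NDC80 and NUF2 kept places 1 to 4, and KNL1 and NSL1 places 9 and 10. On counts, all members were measured deeply: the lowest value in a siCtrl library was 1507, and the lowest of all was 380, for NUF2 in a siNUF2 library. The counting error expected from these numbers was between 1.25% and 4.74%, below the replicate coefficient of variation of each gene, which ran from 2.32% to 29.0%.

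Partner levels varied from library to library in different ways. The Pearson correlation of log2 CPM between partners, over the 6 libraries and 36 pairs of genes, had a median of 0.14 and ran from -0.81 to 0.90. The points share 6 libraries and the group contrast, and this is a description. The 5 tested genes whose profile over the 6 libraries was most like the mean profile of the 9 partners were S100PBP (r = 0.993), CUEDC2 (r = 0.991), SDHA (r = 0.989), PGLS (r = 0.988) and MADD (r = 0.986), where a high correlation over 6 points is readily met among so many genes. None of the 5 is a kinetochore gene by name.

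Late cell cycle genes often carry a CHR element (TTTGAA) or a CCAAT box (CCAAT) near their start, and promoters of the members were searched for these letters on both strands. RefSeq promoters of GRCh38.p14, from 250 bases before to 50 after the start, were given for 9 members and not for KNL1. A CHR element was in 4 of 9, against 15.2% of 35116 promoters, and a CCAAT box in 5 of 9 (SPC24, SPC25, ZWINT, MIS12 and PMF1), against 34.6%. ZWINT and MIS12 had 2 promoters each and counted if either held the letters. The counts per gene and the shares of single promoters are thus unlike units. The CHR windows are shown because the 3 partners that hold one, NDC80, SPC25 and ZWINT, were also the 3 with log2 fold changes above 0, a coincidence seen after the values were known, in differences that did not pass the test. SPC25 holds another CHR element at position -247 from its start, which is not shown. Capitals mark the element, read as TTCAAA where it lies on the opposite strand.
NUF2, 16 bases downstream of the start, chr1:163321958-163321987, plus strand: ggaggcggcaagTTTGAAaagtgatgacgg
NDC80, 3 bases upstream of the start, chr18:2571542-2571571, plus strand: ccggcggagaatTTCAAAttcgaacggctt
SPC25, 3 bases upstream of the start, chr2:168890416-168890445, minus strand: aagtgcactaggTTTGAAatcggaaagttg
ZWINT, 31 bases upstream of the start, chr10:56361273-56361302, minus strand: gtcgactgtgacTTCAAAgtaatcttaggg

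The proteins that hold the KMN network from the inner side were read next. This list and those of docked proteins and G2/M genes were chosen with earlier results of these data known. Their counts beside all tested genes are therefore a description. Of 17 inner kinetochore genes, 1 rose (1.53% of all tested genes rose), 0 fell (2.46% of all fell) and 16 did not pass, with a median log2 fold change of 0.07 against 0.01 over all genes. CENPA, the histone H3 variant that marks centromeric chromatin, was the one that rose. It measured 8.65, 8.77 and 9.27 FPKM in the siCtrl libraries and 14.7, 15.5 and 14.7 FPKM in the siNUF2 libraries. Every siNUF2 library was above every siCtrl library, and the log2 fold change was 0.77 (adjusted p = 0.0112, standard error 0.11). Without siCtrl replicate 1 the adjusted p was 0.0582. CENPA overlaps SLC35F6 on the same strand, which had 3136 to 3476 counts a library. The other named genes of the list were CENPN at 0.32 (adjusted p = 0.112), CENPQ at -0.38 (adjusted p = 0.152) and CENPP at -0.72 (adjusted p = 0.161). CENPP overlaps IPPK on the opposite strand, which had 452 to 1997 counts a library, beside a mean of 2106 for CENPP. Whether the counting used strand is not known, so the value of CENPP is uncertain. CENPN overlaps CMC2 on the opposite strand (1787 to 2115 counts a library) and AC092718 on the same strand (753 to 1047 counts). With the replicate block, which called 14.5% of all tested genes, 5 genes of the list were called, 3 higher (CENPA, CENPN and CENPW) and 2 lower (CENPP and CENPQ).

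Of 21 genes for proteins that dock on the KMN network or act there, 3 rose, 1 fell and 17 did not pass, beside 1.53% rising and 2.46% falling among all tested genes, with a median log2 fold change of 0.11. As the list was chosen with earlier results known, these counts are no result about docked proteins as a class. ZW10, a subunit of the RZZ complex that the KNL1 complex helps to recruit, had the largest rise. It measured 5.29, 5.52 and 5.84 FPKM in the siCtrl libraries and 13.8, 13.5 and 13.9 FPKM in the siNUF2 libraries. The groups were widely apart, and the log2 fold change was 1.33 (adjusted p = 0.00149, standard error 0.11). Leaving out single libraries gave adjusted p values from 0.00668 to 0.0166. Its partners in the RZZ complex, KNTC1 (ROD) at 0.19 and ZWILCH at -0.09, had adjusted p = 0.666 and 0.703.

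BUB3, a checkpoint protein that binds the KNL1 scaffold with BUB1, fell. It measured 21.8, 19.8 and 19.6 FPKM in the siCtrl libraries and 12.4, 12.6 and 13.7 FPKM in the siNUF2 libraries. All siNUF2 libraries were lower, and the log2 fold change was -0.64 (adjusted p = 0.0114, standard error 0.09). The adjusted p was 0.0539 without siCtrl replicate 1 and 0.0611 without siNUF2 replicate 1. For BUB1 itself the log2 fold change was -0.19 (adjusted p = 0.459).

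SKA2, a subunit of the SKA complex that works beside the NDC80 complex on microtubules, rose. It measured 15.5, 19.2 and 16.0 FPKM in the siCtrl libraries and 24.7, 30.6 and 26.6 FPKM in the siNUF2 libraries. The groups did not overlap, and the log2 fold change was 0.71 (adjusted p = 0.0228, standard error 0.13). This call held without siCtrl replicate 2 (adjusted p = 0.0353) and was lost with any of the other 5 libraries left out, up to an adjusted p of 0.0920 without siCtrl replicate 1. The other subunits, SKA1 at -0.01 and SKA3 at 0.11, had adjusted p = 0.973 and 0.699.

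PPP1CB, a catalytic subunit of the phosphatase PP1 that opposes Aurora B at KNL1, measured 21.2, 22.5 and 20.6 FPKM in the siCtrl libraries and 28.7, 27.9 and 29.0 FPKM in the siNUF2 libraries. It rose, and the log2 fold change was 0.43 (adjusted p = 0.0311, standard error 0.08), in groups that did not overlap. With any of the 6 libraries left out the call was lost, with adjusted p from 0.0659 without siNUF2 replicate 2 to 0.134 without siCtrl replicate 3. The other PP1 catalytic subunits of the list, PPP1CA at 0.01 and PPP1CC at 0.27, had adjusted p = 0.953 and 0.137. PPP1CC was called with the replicate block (adjusted p = 0.0358). SPDL1, the dynein adaptor at kinetochores, stood at -0.35 on the log2 scale (adjusted p = 0.0700). With the replicate block, beside the same 14.5% of all tested genes, 7 genes of this list were called, 5 higher and 2 lower, the lower ones being BUB3 and SPDL1.

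Since several KMN genes are expressed in a cell cycle manner, 17 genes that mark G2 and mitosis were read beside them. By edgeR 0 of 17 were called, 2 had an unadjusted p under 0.05, and DESeq2 called 1, beside 3.99%, 18.2% and 8.29% of all tested genes. The median log2 fold change was 0.06. BIRC5 (survivin, of the chromosomal passenger complex) had the largest value, 0.50 (adjusted p = 0.0548), followed by CENPF at 0.30 (adjusted p = 0.149). These 2 were called with the replicate block, beside 14.5% of all tested genes (adjusted p = 0.0055 and 0.0250). CDK1, the mitotic kinase, had the lowest value, -0.21 (adjusted p = 0.312), and BUB1 followed. AURKA and BUB1 stand in both this list and the docked proteins. The part of the cell cycle in the values of the KMN genes was not tested.

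**Figure D5:**
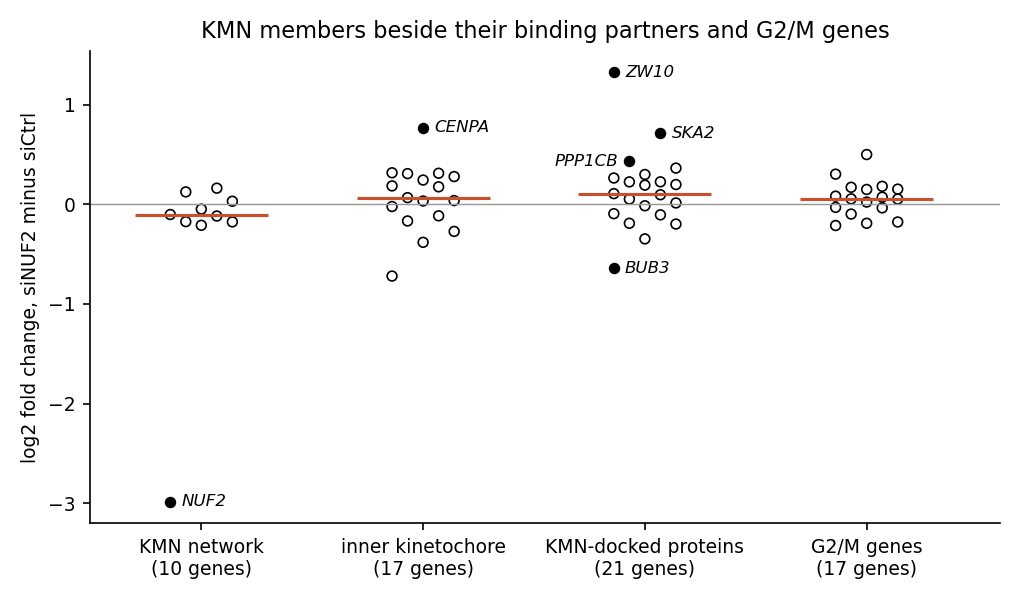
Log2 fold change (siNUF2 minus siCtrl) of the KMN genes, of 17 inner kinetochore genes, of 21 genes for proteins docked on the KMN network and of 17 G2/M genes, from edgeR without the replicate block. Filled points were called at an adjusted p under 0.05 and are named, open points were not, and orange lines are medians (-0.11 for the 10 KMN genes with NUF2).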

How the data were processed

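Poly(A) RNA of siCtrl and siNUF2 8505C cells was sequenced by the authors as paired-end reads, trimmed with fastp, aligned to GRCh38 with HISAT2 and quantified with StringTie. Versions and strand setting are not given in the sources used here, nor is the tool behind the counts. The authors deposited whole-number counts per gene, which are not normalized, and FPKM, which are scaled by gene length and library size. All 12 value columns were used.

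Counts of genes whose mean FPKM was 1 or more were tested with edgeR 4.0.16 (R 4.3.3), TMM scaling, quasi-likelihood and Benjamini-Hochberg adjustment, after a test of the code on simulated data. Alternatives used DESeq2 1.42.0, limma 3.58.1 on log2(FPKM + 1) and log2(FPKM + 0.1), an F-test on log2(FPKM + 1), filters of none and of a mean FPKM of 5, size factors of DESeq2 in edgeR, a replicate block, and each library left out. Ratios were tested with exact permutation tests (scipy 1.17.1). The members and gene lists were chosen with earlier results of these data known.

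Named were all members, and from each list every called gene plus the 2 largest rises and 2 largest falls. KNTC1, ZWILCH, SKA1, SKA3, PPP1CA, PPP1CC and CENPW were added after values were seen. PMF1-BGLAP was named as an overlapping gene. Same-numbered libraries of the groups deviated together across genes (r from 0.31 to 0.43, for other numbers -0.28 to -0.14). Deviations from a group mean cancel within the group, so the negative values are no separate evidence. Same-numbered libraries were therefore taken as paired, and no source says what a number shares. Replicate libraries were no copies of each other (chi-square of 54.7 to 77.7 for each degree of freedom). Transcript sequences came from GENCODE release 44. TSHR, among the thyroid markers, was not analysed here, and some items are not reported here.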

Additional observations from a re-analysis of the deposited data

How the results depend on the processing

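Every alternative left NUF2 the only KMN gene called. The 9 partners gave 124 values over the alternatives, 0 of them called, with a lowest adjusted p of 0.108 in edgeR. With single libraries left out, SPC24 ran from -0.36 to 0.055 and PMF1 from -0.11 to 0.059, reversing in sign. Other partners kept their sign but moved by over 1.5 times: DSN1 to between -0.17 and -0.037, ZWINT to between 0.050 and 0.20, NSL1 to between -0.24 and -0.098, SPC25 to between 0.090 and 0.22, KNL1 to between -0.29 and -0.13, and NDC80 to between 0.0030 and 0.073. KNL1 and NSL1 have no value under the filter at a mean FPKM of 5, which removes them. The number of genes called over the whole table, 468, was 972 by DESeq2, 188 without the filter, 1705 with the replicate block, 78 by the F-test, and 124 to 251 with single libraries left out, which leaves fewer samples. The genes called in the 3 lists together, 5, were 8 by DESeq2, 3 without the filter, 14 with the replicate block, 3 by limma on log2(FPKM + 0.1), 2 by the F-test and 1 to 4 with single libraries left out. Inner kinetochore calls, 1, were 2 by DESeq2, 5 with the block and 0 to 1 with libraries left out. Docked protein calls, 4, were 2 without the filter, 7 with the block, 2 by limma on log2(FPKM + 0.1), 1 by the F-test and 1 to 3 with libraries left out. SKA2 was lost without the filter (adjusted p = 0.0632), by limma on log2(FPKM + 0.1) (0.0527) and by the F-test (0.133). PPP1CB was lost in the same settings (0.0854, 0.0847 and 0.0566) and by limma on log2(FPKM + 1) (0.0611). BUB3 was lost by the F-test (adjusted p = 0.0567). G2/M calls, 0, were 1 by DESeq2 and 2 with the block. Named genes that passed with the block and not without were CENPP, CENPQ, CENPN, CENPW, SPDL1, PPP1CC, BIRC5, CENPF and PMF1-BGLAP. Apart from these counts the block changed no other call of a named gene. The cause of these shifts was not tested. With 3 libraries a group, partner differences inside the intervals given could not be resolved.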
